A study of Drosophila melanogaster with 6 samples.

Results

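The genes Sodh-1, CG6910, klu, Cyp4e3, CG15096, CG8112, CG1979 and CG16758 were followed over all 26 cell clusters of starved and fed flies. These 8 of the 12925 genes in the matrix were chosen by their measured values in fat body, as genes whose RNA was far higher in nuclei of starved flies than of fed flies at day 2, day 5 or both. Their fat body values are therefore given as a description, with no test. Tests were run only in the other clusters, which come from the same 6 libraries.

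The fly fat body stores triglyceride and glycogen and does the work of liver and adipose tissue. During starvation it releases these stores, and its enzymes of sugar, lipid and nucleotide metabolism are reset. Among the 8 genes, Sodh-1 encodes a sorbitol dehydrogenase, which oxidizes sorbitol to fructose. CG6910, named Miox in the annotation, encodes an inositol oxygenase, which opens the ring of myo-inositol. CG15096 encodes a transporter of the SLC17 group, whose members carry phosphate and organic anions. CG16758 encodes a purine nucleoside phosphorylase, which splits purine nucleosides into base and ribose phosphate. CG8112 is annotated as a sterol O-acyltransferase, the kind of enzyme that makes sterol esters for storage. Cyp4e3 is a cytochrome P450 of the Cyp4 family, and klu (klumpfuss) is a zinc finger transcription factor of the Egr and Wilms tumour kind. CG1979 has no role given here.

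The genes lie on 3 chromosomes of the BDGP6 annotation. Sodh-1 (FBgn0024289) spans 3R:7052335-7054541 on the plus strand, and CG1979 (FBgn0026563) starts 44 bases after its end on the same strand, at 3R:7054586-7058671. CG8112 (FBgn0037612) lies at 3R:8712933-8715263, plus strand. CG6910 (FBgn0036262) lies at 3L:12184984-12187860, plus strand, klu (FBgn0013469) at 3L:10981171-11009188, minus strand, and CG16758 (FBgn0035348) at 3L:2499372-2503606, minus strand. Cyp4e3 (FBgn0015035) lies at 2L:9747839-9750071, minus strand, and CG15096 (FBgn0034394) at 2R:18808356-18815019, minus strand.

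Nuclei came from adult female flies without heads, all of the genotype PromE-gal4, Tub-gal80ts, and were measured by droplet single-nucleus RNA sequencing. PromE-gal4 is an oenocyte driver held back by a temperature-sensitive Gal80, and the labels name no transgene for it to drive, so fed and starved flies share the same alleles. The groups are fed flies, flies at day 2 of starvation and flies at day 5 of starvation, with 2 libraries each, and all were kept at 29 °C after growth at a lower temperature. The labels give this stay both as 7 days and as 5 days. Starvation times are those of the sample titles, although the libraries titled day 2 are named with a 5 and those titled day 5 with a 7. Flies were pooled, and it is not stated whether paired reactions used different flies. The p-values below therefore measure only the spread between these libraries, which may be technical.

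The fed libraries held 10059 and 10091 nuclei, the day 2 libraries 7591 and 7492, and the day 5 libraries 3776 and 4018, with 7562484 to 22940414 UMIs (distinct RNA molecules counted) per library. The cluster labelled fat body by the authors held 3013 of the 43027 nuclei (7.00%), 293 to 730 per library, with medians of 3884 to 4750 UMIs per nucleus. Of the 9 fat body markers in the matrix, 8 were highest in this cluster, and hemocyte markers were near 0 in it. The summed marker level was 510 to 527 UMIs per 10000 in fed, 304 to 305 at day 2 and 264 to 274 at day 5. Most of this sum was the lipoprotein gene apolpp, with 394, 219 and 197 in fed, day 2 and day 5. In the same order, Apoltp (18.2, 11.5 and 9.91), Yp1 (38.7, 19.8 and 8.42), AkhR (15.6, 11.9 and 3.67) and Lsd-1 (11.5, 7.51 and 0.815) fell as well. The markers FASN1 (32.0, 23.8 and 31.2) and fon (5.44, 4.67 and 6.31) were lowest at day 2, while Lst went from 3.85 to 6.11 and 11.6. Markers of eggshell cells in the fat body cluster went from 13.95 and 13.7 UMIs per 10000 in fed libraries to 0.103 and 0.112 at day 2 and to 0.035 and 0.014 at day 5, while those of hemocytes lay between 0.077 and 0.311. The part of these shifts in the levels below was not tested. A level is the number of UMIs of a gene per 10000 UMIs of all genes, summed over the nuclei of a cluster in a library, so that a gene read in more nuclei and a gene with more RNA in each nucleus give the same rise.

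Sodh-1 and CG6910, the sugar alcohol enzymes, were high at both times of starvation. In fat body the Sodh-1 level was 1.48 and 1.46 UMIs per 10000 in the fed libraries, 11.2 and 11.9 at day 2, and 10.1 and 8.44 at day 5. All 4 starved libraries lay above both fed libraries, and day 2 lay above day 5. The mean level was 7.85-fold the fed level at day 2 and 6.29-fold at day 5. The CG6910 level was 3.95 and 3.40 UMIs per 10000 in fed, 27.6 and 25.2 at day 2, and 20.03 and 20.9 at day 5. It was the most abundant of the 8 genes in every starved library, at 7.16-fold the fed level at day 2 and 5.53-fold at day 5. Both genes thus kept most of their day 2 level at day 5.

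CG15096, the transporter, followed the same course at a lower level. It had 1.41 and 1.35 UMIs per 10000 in fed fat body, 7.08 and 7.47 at day 2, and 5.14 and 5.27 at day 5. The groups did not overlap, and the level was 5.26-fold the fed level at day 2 and 3.77-fold at day 5.

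The genes klu, CG8112 and CG1979 were higher at day 5 than at day 2. The klu level was 0.939 and 0.796 UMIs per 10000 in fed, 10.1 and 10.2 at day 2, and 19.1 and 19.7 at day 5, so that replicate libraries differed far less than conditions. Its ratio to fed was 11.6 at day 2 and 22.2 at day 5. CG8112 had 1.22 and 1.16 UMIs per 10000 in fed, 3.72 and 3.86 at day 2, and 14.8 and 13.8 at day 5, or 3.19-fold and then 12.1-fold the fed level. CG1979, the gene that follows Sodh-1 on the chromosome, was the least abundant of the 8 in fed flies, with 0.634 and 0.593 UMIs per 10000. It reached 2.02 and 1.98 at day 2 and 4.48 and 4.04 at day 5. Its course differed from that of its neighbour: CG1979 was at its highest at day 5 and Sodh-1 at day 2.

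CG16758, the purine nucleoside phosphorylase, was high only at day 5 among the 3 conditions. Its level was 4.94 and 4.47 UMIs per 10000 in fed, 3.58 and 3.66 at day 2, and 19.5 and 18.8 at day 5. Both day 2 libraries lay below both fed libraries, at 0.766 of the fed level, and both day 5 libraries lay above them, at 4.06-fold. It was the most abundant of the 8 genes in fed fat body, where it held 30.3% and 29.8% of their summed UMIs.

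Cyp4e3 went the opposite way after day 2. Its level was 1.76 and 1.79 UMIs per 10000 in fed, 12.99 and 13.99 at day 2, and 0.021 and 0.043 at day 5. The day 5 values rest on 3 and 6 UMIs, at and just above the 3 counts taken as the floor of detection. The fed level was 55.6-fold, and the day 2 level 423-fold, the day 5 level. Cyp4e3 thus was near its highest rank at day 2 and near the lowest at day 5: by the difference in mean deposited value from fed it stood 8 of 8065 genes at day 2 and 7791 of 8065 at day 5. Between day 2 and day 5 it stood 8064 from the top and CG16758 stood 1. By log2 change on summed UMIs, Cyp4e3 stood 8065 and CG16758 stood 16.

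**Figure D1:**
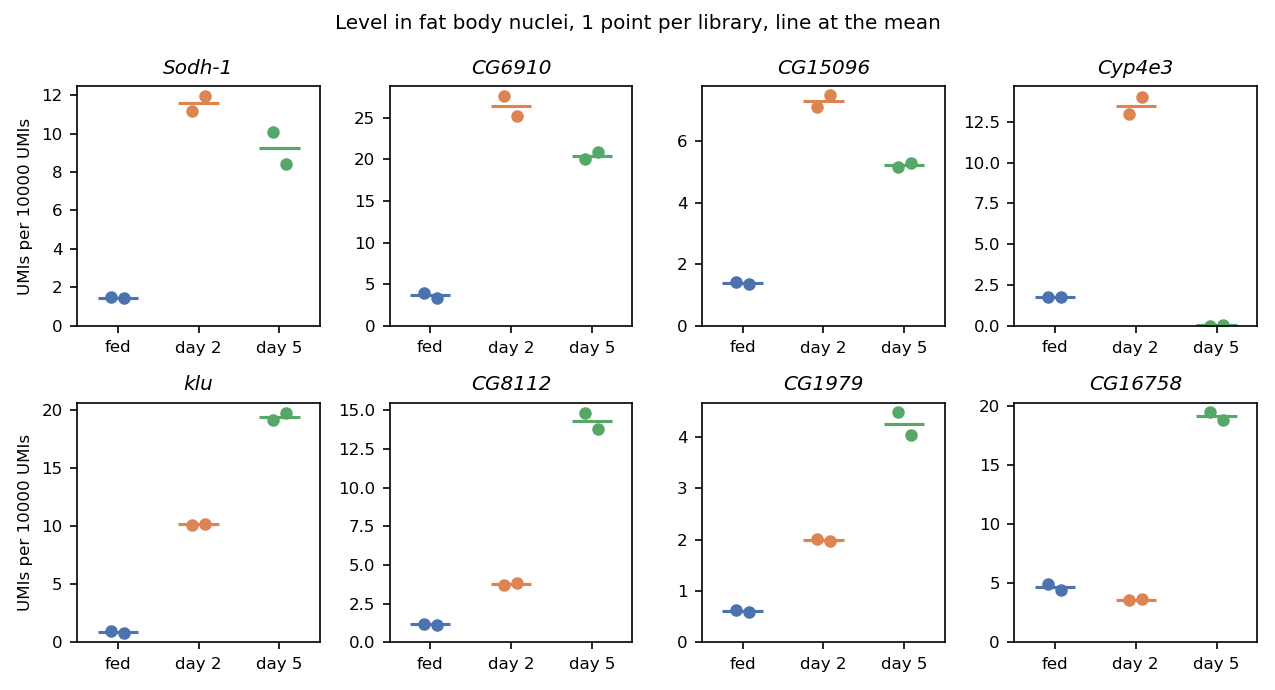
Level of each of the 8 genes in fat body in UMIs per 10000 (vertical axis, linear, one scale per gene) in the 2 fed, 2 day 2 and 2 day 5 libraries, one point per library with a line at the mean. Sodh-1, CG6910 and CG15096 are highest at day 2, klu, CG8112, CG1979 and CG16758 at day 5, and Cyp4e3 drops from 12.99 and 13.99 at day 2 to 0.021 and 0.043 at day 5.

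The 8 genes did not rank alike at both times. By the difference in mean deposited value at day 2, CG6910 stood 1 of 8065, Sodh-1 3, klu 4, CG15096 5, CG1979 19, CG8112 48 and CG16758 7615. At day 5, CG8112 stood 1, klu 4, CG1979 6, CG16758 10, CG6910 12, Sodh-1 13 and CG15096 36. These ranks depend on the scale. By log2 change on summed UMIs at day 2, CG6910 stood 17, Sodh-1 15, klu 6, CG15096 30, CG1979 76, CG8112 78 and CG16758 6587. At day 5 on that scale CG8112 stood 16, klu 7, CG1979 36, CG16758 91, CG6910 53, Sodh-1 43 and CG15096 104. The median log2 change over all 8065 genes was 0.06 at day 2 and -0.08 at day 5, far smaller than the member differences. Their summed level was 16.3 and 15.01 UMIs per 10000 in fed fat body, 78.2 and 78.4 at day 2, and 93.2 and 90.99 at day 5. The sum therefore stayed high while its makeup changed.

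The number of fat body nuclei in which a gene was read was compared after thinning every nucleus to 1000 UMIs, which left out 0 to 6 fat body nuclei per library. Sodh-1 was read in 9.68% to 11.97% of fed nuclei, 54.3% to 58.7% of day 2 nuclei and 49.5% to 51.0% of day 5 nuclei. The same share for klu was 6.05% to 7.70% in fed, 56.2% to 56.5% at day 2 and 66.7% to 67.6% at day 5. Both the share and the number of UMIs per positive nucleus were higher in starved flies: for klu, positive nuclei held on average 1.10 to 1.27 UMIs in fed and 2.83 to 3.07 at day 5. Before thinning, Sodh-1 was read in 28.4% to 31.0% of fed and 80.9% to 84.5% of day 5 nuclei.

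CG6910 was read in 22.7% to 23.4% of thinned fed fat body nuclei and in 77.7% to 81.1% at day 2. CG8112 went from 8.62% to 9.77% in fed to 61.5% to 70.3% at day 5, and CG16758 from 24.1% to 25.0% in fed, over 21.1% to 21.3% at day 2, to 69.3% to 70.1% at day 5. CG15096 reached 45.9% to 46.1% at day 2. CG1979 was read in the fewest nuclei at its peak, 28.2% to 32.8% at day 5. As a background measured the same way, indirect flight muscle nuclei, with medians of 874.5 to 1094 UMIs and 450 to 1081 nuclei per library left out as too shallow, gave a UMI of Sodh-1 in 0.588% to 0.856% of fed and 4.63% to 6.55% of day 2 nuclei.

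**Figure D2:**
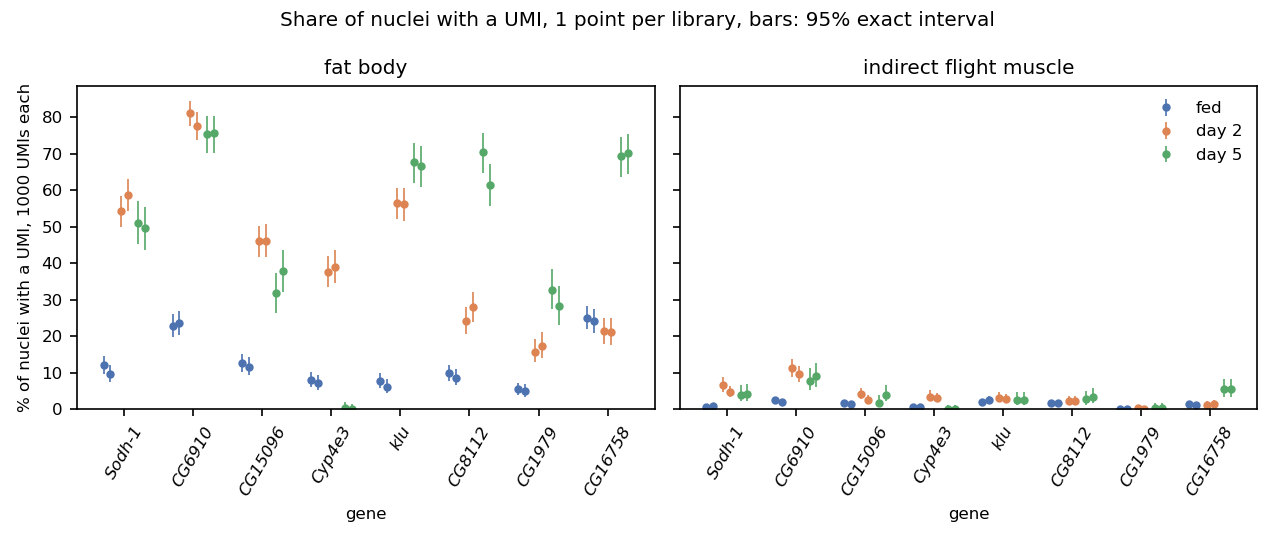
Percent of nuclei with at least 1 UMI of each gene after thinning to 1000 UMIs (vertical axis), per library, in fat body and in indirect flight muscle, with 95% exact binomial intervals that cover counting error only. In fat body 7 of the genes are read in far more day 5 than fed nuclei, while Cyp4e3 goes from 37.6% to 39.0% at day 2 to 0% to 0.345% at day 5.

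Cyp4e3 was spread unevenly over the fat body nuclei. At day 2 no UMI of it was read in 274 of 546 nuclei (50.2%) of replicate 1 and 248 of 487 (50.9%) of replicate 2, although UMIs spread evenly by depth would leave 1.96% and 1.14% at 0. In the same libraries 119 and 126 nuclei with 10 or more UMIs held 81.9% and 86.2% of its UMIs, and the highest nuclei held 70 and 59. Sodh-1, at a similar day 2 level, was at 0 in 15.6% of nuclei of either library, against 2.90% and 1.77% for an even spread. CG16758, at a lower day 2 level, was at 0 in 59.2% and 55.9%, against 24.0% and 20.2%, so an excess at 0 was not particular to Cyp4e3. In fed fat body 88.5% and 87.9% of nuclei had no UMI of Cyp4e3, against 47.7% and 48.7% for an even spread. There 21 and 19 nuclei with 10 or more UMIs held 70.5% and 69.4% of its UMIs. Only 2 and 4 fat body nuclei held a UMI of it at day 5. After thinning, 0 of 291 nuclei of day 5 replicate 2 held one, which allows a share of up to 1.26% (exact binomial, 95%).

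Each of 1444 genes was then compared with Cyp4e3 over the thinned day 2 fat body nuclei, as a description over 540 and 484 nuclei of shared libraries that carries no p. The genes named here were singled out after their values were seen, and stand for no list. The lipase-like gene CG5966 had the highest Pearson correlation with Cyp4e3 when ordered by the lower of the 2 libraries (0.41 and 0.40, against 0.07 and 0.07 in fed nuclei). The lipoprotein receptor gene LpR2 had 0.35 and 0.36, and the lipid droplet coat genes Lsd-2 and Lsd-1 had 0.39 and 0.33 and 0.28 and 0.29. The homeobox genes Ubx and hth stood on opposite sides, with 0.34 and 0.37 for Ubx and -0.36 and -0.37 for hth. Desat1, the fatty acid desaturase gene, had -0.31 and -0.38. In fed nuclei LpR2 had -0.13 and -0.06, Ubx -0.12 and -0.08, and hth 0.12 and 0.10. Between the 8 genes themselves, correlations over fat body nuclei were weak, the highest being 0.10 to 0.24 over the 6 libraries for Sodh-1 with CG1979. In the day 2 libraries Cyp4e3 had negative values of similar size, -0.21 and -0.23 with CG16758 and -0.19 and -0.21 with CG8112. In the fed libraries Cyp4e3 had 0.08 and 0.05 with CG16758 and -0.01 and 0.04 with CG8112.

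Sodh-1, CG1979 and CG16758 were highest in fat body in all 3 conditions. In fed flies the Sodh-1 level of fat body was 1.47 UMIs per 10000 over the pooled libraries, against 0.323 in the next cluster, visceral muscle of the crop. At day 2 the next cluster was cluster 12, with 1.31, 8.83-fold below fat body. For CG16758 the next cluster in fed flies was glia with 0.263, 18.0-fold below. For all 3 genes the ranges of the first and second clusters did not overlap, while those of the clusters ranked 2 and 3 overlapped for Sodh-1 in each condition. Fat body, with 6.90% of the fed nuclei, held 75.2% of all fed UMIs of Sodh-1, 87.9% of CG1979 and 82.6% of CG16758.

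The other genes had another cluster above fat body in fed flies or at day 5. CG6910 was highest in fed hemocytes, at 7.84 UMIs per 10000, then in oviduct with 3.77 and fat body with 3.69, whose ranges overlapped. At day 2 fat body led with 26.4, and hemocytes had 10.3. CG15096 was highest in fed cluster 12, with 3.31 against 1.38 in fat body, and fat body led by only 1.18-fold at day 2 (7.27 against 6.18). CG8112 was highest in fed late follicle cells (cluster 14), with 1.64 against 1.19 in fat body. For Cyp4e3 fat body led in fed flies and at day 2, 14.4-fold above the next cluster at day 2, but stood 4 of 26 clusters at day 5, below cluster 20 with 0.223. That order rests on few counts, with 3 and 6 UMIs in the fat body libraries and 20 and 32 nuclei in those of cluster 20. It is thus a weak basis for a rank.

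The rank of fat body moved most for klu. In fed flies fat body stood 15 of 26 clusters, with cluster 5 (follicle cells) at 13.3 UMIs per 10000, oenocytes at 12 with an overlapping range and glia at 8.38. At day 2 fat body stood 3, below oenocytes with 17.02 and cluster 5 with 13.9. At day 5 it stood 2, at 19.4, below oenocytes with 21.8. Fat body held 5.21% of all klu UMIs in fed flies, 37.6% at day 2 and 55.4% at day 5.

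**Figure D3:**
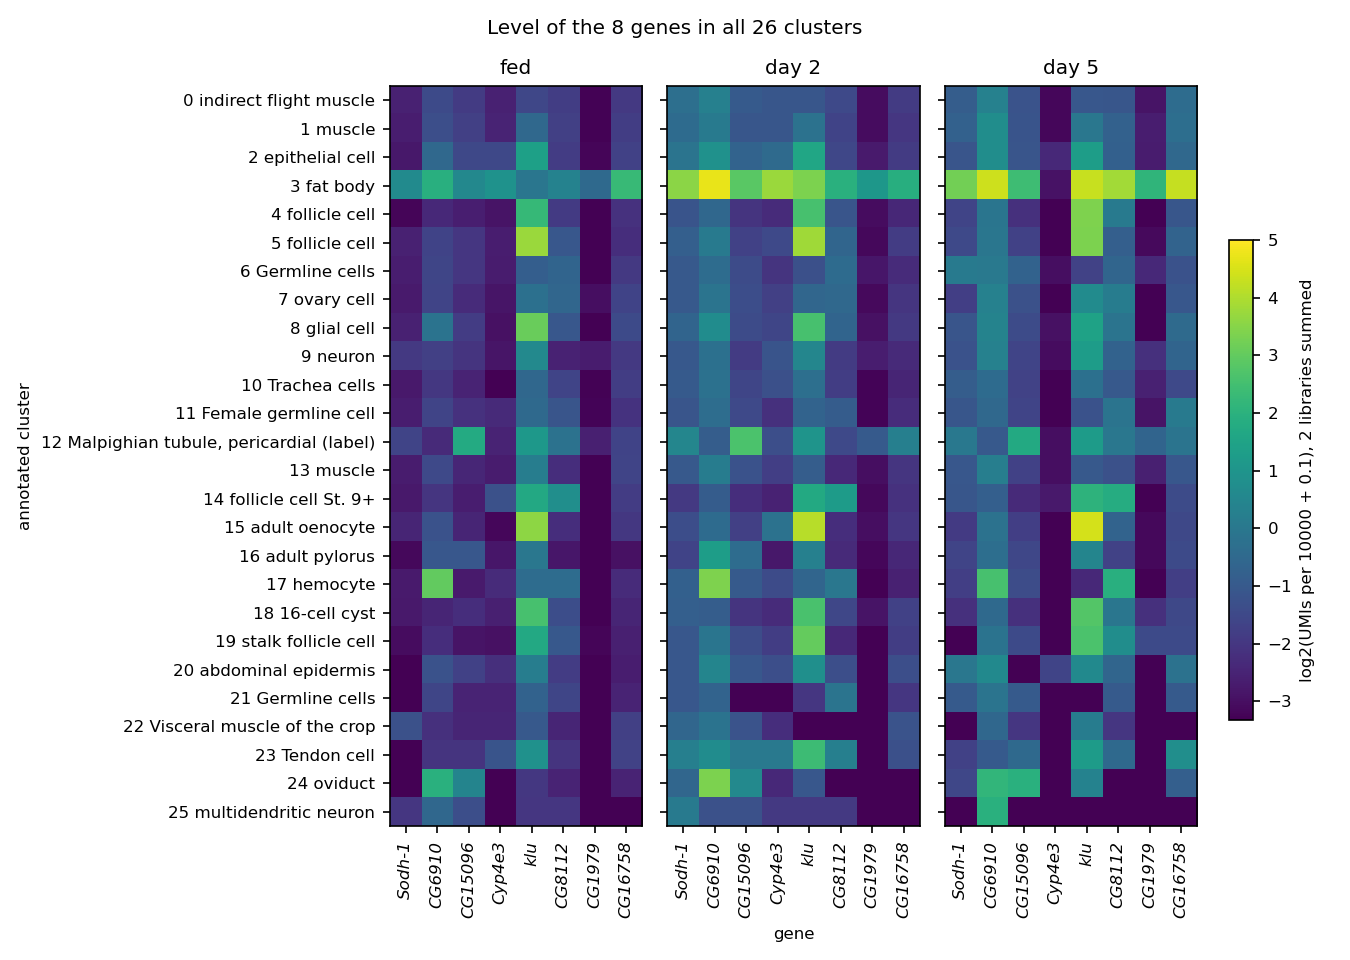
Heat map of log2(UMIs per 10000 + 0.1) of the 8 genes (columns) in the 26 clusters (rows), in a panel each for fed, day 2 and day 5, with the 2 libraries of a condition summed. In the fed panel fat body leads for Sodh-1, Cyp4e3, CG1979 and CG16758, while klu is higher in oenocytes (12 in fed) and cluster 5 (13.3 in fed), CG6910 in hemocytes (7.84 in fed), CG15096 in cluster 12 (3.31 in fed) and CG8112 in late follicle cells (1.64 in fed).

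Outside fat body, most calls for these genes were higher in starved flies. Of 144 pairs of gene and cluster in the 18 clusters with 20 or more nuclei in every library, 90 had enough nonzero nuclei to be tested, 52 did not, and the rest had no UMI. At day 2, 21 pairs were higher than fed and 0 lower (limma on mean deposited values, Benjamini-Hochberg within a cluster), while at an unadjusted p under 0.05 there were 47 higher and 2 lower, and summed UMIs gave 1 lower. Over all genes of these clusters 1.3% of the tests were higher and 3.07% lower. At day 5, 30 pairs were higher and 2 lower, against 4.33% and 16% of all tests. Between day 2 and day 5, 12 pairs were higher at day 5 and 11 lower, against 2.73% and 10.6% of all tests.

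The count of tested pairs depends on the filter. Of the 90 tested pairs, 69 passed it in a fed library and 21 only through starved libraries. The latter gave 6 of the 21 day 2 calls and 7 of the 30 day 5 calls. Between day 2 and day 5 they gave 2 of the 12 higher calls and 6 of the 11 lower ones. With no filter 13 pairs were higher at day 2 and 18 at day 5. Leaving out fed replicate 1 gave 11 pairs higher at day 2 and 13 at day 5, and leaving out fed replicate 2 gave 11 and 18. Without day 2 replicate 1 the day 2 count was 12, and without day 2 replicate 2 it was 11. No call took the other sign under any of 1107 repeats with another setting or without a library, 170 of which lost the call.

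**Figure D4:**
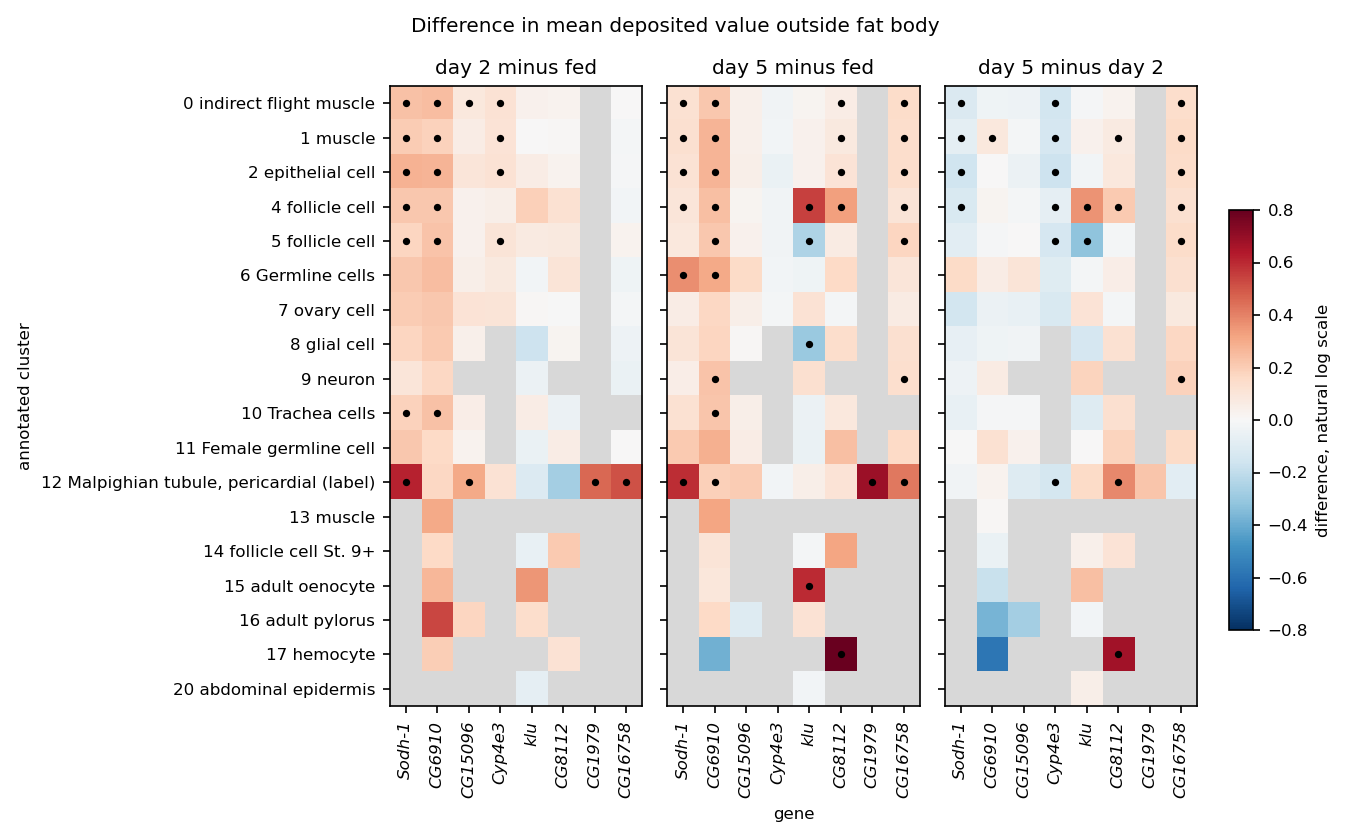
Heat map of the difference in mean deposited value (natural log scale, red higher, blue lower) of the 8 genes (columns) in the 18 tested clusters outside fat body (rows), in a panel for each of the 3 comparisons, with a dot for an adjusted p under 0.05 and grey where a pair was not tested. The dots of day 2 against fed are all on red, and those of day 5 against fed are on red except klu in clusters 5 and 8.

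Several of the genes also rose, at low levels, in indirect flight muscle, the wing power muscle. In that cluster (cluster 0) Sodh-1 had 0.068 and 0.075 UMIs per 10000 in fed, 0.853 and 0.599 at day 2 and 0.399 and 0.504 at day 5, with no overlap between fed and starved. The log2 change was 3.29 at day 2 (SE 0.24 on summed UMIs; adjusted p = 2.3e-06 from limma on mean values, here and below) and 2.63 at day 5 (adjusted p = 0.00063). CG6910 rose in the same cluster at both times, by 2.09 and 2.12 on the log2 scale. CG16758 had 0.179 and 0.146 UMIs per 10000 in fed, 0.157 and 0.192 at day 2 and 0.735 and 0.604 at day 5, and was called at day 5 only, with a log2 change of 2.04. Cyp4e3 had 0.359 and 0.377 at day 2 and 0.010 in either day 5 library. In this cluster 4 of 7 tested members were higher at day 2 and 4 at day 5, against 4.74% and 8.68% of its genes.

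Sodh-1, CG16758 and Cyp4e3 each had their highest libraries there in the same condition as in fat body. CG6910 rose there by nearly the same log2 change at both times, while in fat body its change was 2.85 at day 2 and 2.48 at day 5. The RNA of apolpp, a lipoprotein gene that marks fat body, was also read in flight muscle, at 9.78 UMIs per 10000 in fed flies against 394 in fat body. If each gene stood to apolpp in flight muscle as it does in fat body, Sodh-1 would be at 0.037 in fed flight muscle, where 0.072 was read, a ratio of 1.96. Over the 18 clusters the median of that ratio was 1.68 in fed, 1.70 at day 2 and 3.04 at day 5 for Sodh-1, and 1.61, 1.67 and 1.82 for CG16758. For CG6910 it was 3.29, 1.68 and 3.40. For Cyp4e3 it was 1.85, 0.84 and 16.2, the last resting on 3 and 6 UMIs in fat body. The part of fat body RNA in these low levels was not tested beyond these ratios.

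In fed flies the ratio was far higher for klu, which had calls against fed in both directions. Its median ratio over the 18 clusters was 85.5 in fed, 6.06 at day 2 and 3.71 at day 5. The oenocyte ratio of klu was 446 in fed, 120 at day 2 and 160 at day 5. In oenocytes its level was 11.2 and 13.4 UMIs per 10000 in fed, 17.9 and 16.2 at day 2 and 20.2 and 23.5 at day 5. It rose at day 5 by 0.83 on the log2 scale (SE 0.13; limma, adjusted p = 0.013). The call was lost without fed replicate 1 (adjusted p = 0.092) and without day 5 replicate 2 (adjusted p = 0.063). At this cluster's day 5 contrast 3.5% of all genes were higher.

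In cluster 4, labelled follicle cell, klu had 4.67 and 4.65 UMIs per 10000 in fed, 6.41 and 5.42 at day 2 and 9.59 and 11 at day 5. The log2 change at day 5 was 1.14 (SE 0.10; limma, adjusted p = 8.3e-05), where 3.47% of the cluster's genes were higher, and the call held under all 15 repeats. In cluster 5, also labelled follicle cell, klu had 13 and 13.6 in fed, 14.1 and 13.8 at day 2 and 9.67 and 10.4 at day 5, so that both day 5 libraries lay below the other 4. It fell by 0.40 on the log2 scale from fed to day 5 (SE 0.07; limma, adjusted p = 0.0086), where 12.2% of the genes were lower. This call was lost with no filter (adjusted p = 0.052), without fed replicate 1 (adjusted p = 0.057) and without fed replicate 2 (adjusted p = 0.090).

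In glia (cluster 8) the klu level was 10.5 and 6.24 UMIs per 10000 in fed, 5.20 and 6.43 at day 2 and 2.48 and 2.90 at day 5. The fed replicates differed, and fed overlapped with day 2 but not with day 5. The log2 change at day 5 was -1.58 (SE 0.24; limma, adjusted p = 0.017), where 12.6% of the genes were lower. Without fed replicate 1 the adjusted p was 0.24, with no filter 0.10, and without the tenth of nuclei with the most UMIs 0.21. At day 2 limma called klu in 0 of 16 tested clusters on mean values and in 0 on summed UMIs, with 3 higher and 1 lower at an unadjusted p under 0.05.

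**Figure D5:**
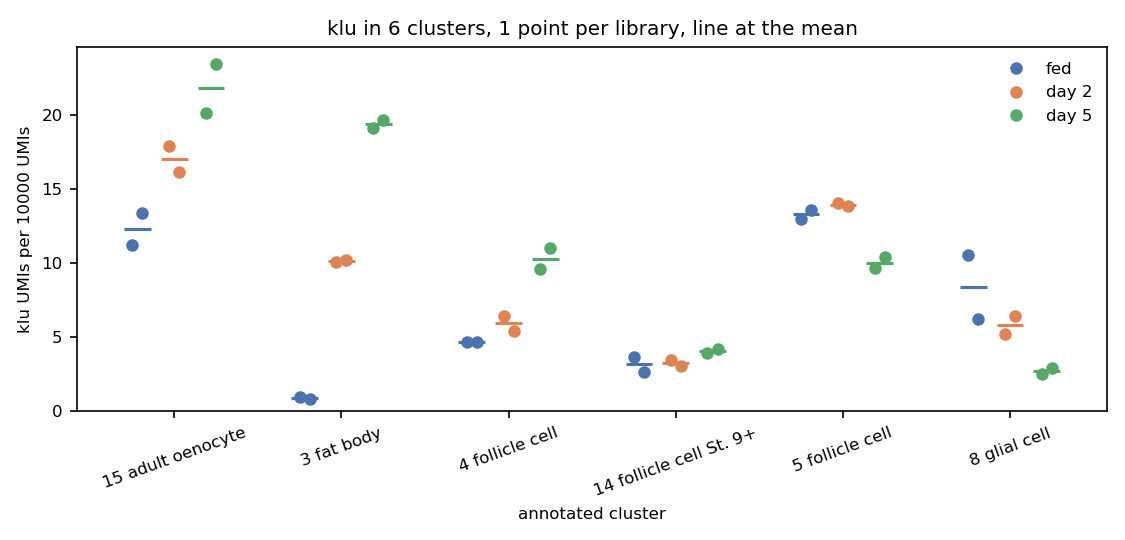
Level of klu in UMIs per 10000 (vertical axis) in oenocytes, fat body, clusters 4, 14 and 5 (follicle cells) and glia, with fed, day 2 and day 5 side by side, one point per library and a line at the mean. Fat body goes from 0.939 and 0.796 in fed to 19.1 and 19.7 at day 5, oenocytes and cluster 4 are also higher at day 5 than fed, and cluster 5 and glia are lower.

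In cluster 12, 4 of 8 members were higher at day 2, against 2.58% of its genes, and 4 of 8 at day 5, against 9.62%. The deposited name is Malphian tubule and pericardial cells, but all 5 enterocyte markers (nub, alphaTry, betaTry, Amy-p and Mal-A1) were highest in it and only 2 of 8 tubule markers and 0 of 5 nephrocyte markers, so it is called by its number. Sodh-1 had 0.242 and 0.203 UMIs per 10000 in fed, 1.21 and 1.40 at day 2 and 0.849 and 0.993 at day 5. It rose at day 2 by 2.54 on the log2 scale (SE 0.17; limma, adjusted p = 0.0022) and at day 5 by 2.04 (adjusted p = 0.0016). CG1979 had 0.064 and 0.069 in fed, 0.508 and 0.320 at day 2 and 0.475 and 0.602 at day 5, with log2 changes of 2.57 (adjusted p = 0.019) and 2.98 (adjusted p = 0.0014). The day 2 call of CG1979 was lost with no filter (adjusted p = 0.077), without fed replicate 1 or 2 (0.13 and 0.089) and without day 2 replicate 1 or 2 (0.11 and 0.099). This is the single tested cluster for CG1979.

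CG16758 in cluster 12 rose at day 2 already, which it did in no other tested cluster. Its level was 0.189 and 0.248 UMIs per 10000 in fed, 0.876 and 1.31 at day 2 and 0.795 and 0.853 at day 5. The log2 change was 2.30 at day 2 (SE 0.23; limma, adjusted p = 0.0042) and 1.92 at day 5 (adjusted p = 0.0070). Both calls were lost without fed replicate 1 (adjusted p = 0.059 and 0.079). Whether this differs from its course in other clusters was not tested. The apolpp-scaled ratio of CG16758 in cluster 12 was 6.06 in fed, 40.8 at day 2 and 3.0 at day 5, and that of Sodh-1 was 20.1, 15.2 and 6.84. The transporter gene CG15096 had 3.21 and 3.44 UMIs per 10000 in fed, 6.19 and 6.18 at day 2 and 3.34 and 3.09 at day 5. It was higher at day 2 than fed (log2 change 0.90, SE 0.09; limma, adjusted p = 0.034) with a ratio of 317 in fed. That call was lost with no filter (adjusted p = 0.076), without the tenth of nuclei with most UMIs (0.14), when adjusted over all clusters (0.066) and without any 1 of the fed or day 2 libraries (0.077 to 0.25).

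CG8112, the sterol acyltransferase, was called at day 5 in hemocytes (cluster 17), where it passed the filter on low values only through starved libraries, so that this call is a description. The hemocyte level was 0.540 and 0.781 UMIs per 10000 in fed, 0.829 and 0.937 at day 2 and 4.37 and 3.11 at day 5, from 5, 8, 5, 8, 22 and 17 UMIs. The log2 change from fed was 2.43 (SE 0.49; limma, adjusted p = 0.0020), where 0.978% of the genes were higher, and without fed replicate 1 the adjusted p was 0.054. In cluster 4 it had 0.143 and 0.185 in fed, 0.337 and 0.372 at day 2 and 0.955 and 1.01 at day 5, a log2 change of 2.59 (limma, adjusted p = 0.00019). CG8112 was higher at day 5 in 5 of 13 tested clusters, hemocytes included, against 4.33% of all tests. Of the 5, hemocytes alone passed the filter only through starved libraries. At day 2 limma called 0 on mean values, with 1 higher and 1 lower at an unadjusted p under 0.05 and likewise 1 and 1 called on summed UMIs. In cluster 12 its level was 0.891 and 0.643 in fed, 0.294 and 0.225 at day 2 and 0.859 and 0.893 at day 5. The 2 day 2 libraries were the lowest there, with an adjusted p of 0.084 for mean values and 0.0052 for summed UMIs (limma).

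CG6910 was higher in 6 of 17 clusters at day 2 and 9 of 17 at day 5, against 1.3% and 4.33% of all tests outside fat body. It passed the filter only through starved libraries in 4 of the 17, which hold 0 of the 6 day 2 calls and 1 of the 9 day 5 calls. In hemocytes, its leading cluster in fed flies, it had 7.99 and 7.71 UMIs per 10000 in fed, 9.95 and 10.5 at day 2 and 4.37 and 7.14 at day 5, and it was called at neither time. Sodh-1 was higher in 7 of 12 clusters at day 2 and 6 of 12 at day 5, against 1.3% and 4.33% of all tests. It was lower at day 5 than at day 2 in 4, against 10.6% of all tests. On summed UMIs it lost these 4 calls (limma, adjusted p = 0.057, 0.52, 0.071 and 0.69 in clusters 0, 1, 2 and 4). In 9 of these 12 clusters it passed the filter only through starved libraries, which had to be the higher ones. These 9 hold 5 of the 7 day 2 calls, 4 of the 6 day 5 calls and 3 of the 4 lower calls. Cyp4e3 was higher than fed in 4 of 8 clusters at day 2, against 1.3% of all tests. On summed UMIs it lost the calls in clusters 1, 2 and 5 (limma, adjusted p = 0.086, 0.35 and 0.12). It was lower at day 5 than at day 2 in 6 of 8, against 10.6% of all tests. It passed the filter only through starved libraries in 5 of the 8, which hold 1 of the 4 day 2 calls and 3 of the 6 lower calls. CG16758 was higher at day 5 in 7 of 11 clusters, against 4.33% of all tests, and 1 of the 7 passed the filter only through starved libraries.

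Single nuclei carried some of the low counts. In oenocytes at day 2, Cyp4e3 had 62 UMIs in replicate 2 and 1 in replicate 1, and 47 of the 62 (75.8%) were in 1 nucleus that also held 77 UMIs of apolpp, where the median nucleus held 1. In cluster 12, 43 of 65 Cyp4e3 UMIs of day 2 replicate 1 were in 1 nucleus with 0 UMIs of apolpp, and 51 of 85 CG6910 UMIs of day 2 replicate 2 were in 1 nucleus. In cluster 6 (germline cells), 11 of the 30 Sodh-1 UMIs of day 5 replicate 1 were in 1 nucleus. How doublets were treated is not given in the sources used here.

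The genes around the members in their pathways were counted in fat body, where 12.1% of all genes were higher and 8.33% lower at day 2, and 15.5% and 15.9% at day 5 (limma, Benjamini-Hochberg adjusted). The members are left out of these counts. Of 12 tested genes of sorbitol, aldo-keto reductase and related sugar steps, 6 were higher and 0 lower at day 2, and 5 were higher and 2 lower at day 5, with median log2 changes of 0.64 and 0.14. Sodh-2, the paralog of Sodh-1, rose from 0.148 and 0.137 UMIs per 10000 in fed to 1.30 and 1.66 at day 2 and 4.6 and 4.13 at day 5 (limma, adjusted p = 2.9e-06 and 3.5e-09). Its day 5 libraries lay above its day 2 libraries, the reverse of Sodh-1. Hex-C, a hexokinase gene, rose from 0.930 and 1.07 to 3.21 and 3.35 at day 2 and stood at 2.99 and 3.19 at day 5.

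Of 11 tested inositol genes limma called 0 at day 2, with 1 higher and 1 lower at an unadjusted p under 0.05 and 1 called on summed UMIs. At day 5, 3 were higher and 1 lower. IP3K1, an inositol trisphosphate kinase gene, rose from 1.77 and 1.60 UMIs per 10000 in fed to 4.22 and 4.02 at day 5. Pis, the phosphatidylinositol synthase gene, fell from 0.812 and 0.723 to 0.489 and 0.460. Of 15 other Cyp4 genes tested, 1 was higher and 3 lower at day 2, and 4 were higher and 4 lower at day 5. Cyp4e2 had 0.758 and 0.818 UMIs per 10000 in fed and 1.32 and 1.34 at day 5 (limma, adjusted p = 0.00024). Cyp4e1 stayed between 0.056 and 0.144.

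Of 17 tested purine genes, 6 were higher and 1 lower at day 2, and 9 were higher and 2 lower at day 5, with median log2 changes of 0.17 and 0.38. Paics, an enzyme of purine synthesis, went from 9.12 and 9.31 UMIs per 10000 in fed to 14.3 and 14.8 at day 2 and 22.1 and 23.5 at day 5. Gart, of the same route, was at 1.04 and 1.08 in fed, 1.21 and 1.13 at day 2 and 5.39 and 4.88 at day 5, so that it was high only at day 5, as CG16758 was. AdenoK, the adenosine kinase gene, fell at both times.

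Acyl transfer and sterol genes went both ways, with 3 higher and 2 lower of 13 at day 2 and 3 and 5 at day 5. Lip4, a lipase gene, was at 2.22 and 2.26 UMIs per 10000 in fed, 7.43 and 7.38 at day 2 and 1.84 and 1.24 at day 5. SREBP, the lipid-responsive transcription factor gene, rose from 1.51 and 1.27 in fed to 3.19 and 3.13 at day 5. The diacylglycerol acyltransferase gene mdy, which makes the stored triglyceride, fell from 9.67 and 9.99 to 4.55 and 4.96 at day 5 (log2 change -1.05; limma, adjusted p = 1.95e-07), while CG8112 was 12.1-fold the fed level.

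Among the SLC17 transporters 2 of 11 were higher and 1 lower at day 2, and 1 higher and 3 lower at day 5. CG3036 was at 25.1 UMIs per 10000 in either fed library, 34.7 and 34.6 at day 2 and 11.2 and 12.4 at day 5. MFS14, the same-strand neighbour of CG15096, fell from 4.61 and 4.47 in fed to 2.90 and 2.83 at day 2 and 2.14 and 2.13 at day 5. Of 17 zinc finger and nutrient-responsive transcription factors, 2 were higher and 6 lower at day 2, and 3 and 7 at day 5. The sugar-responsive factor gene sug fell from 23.2 in either fed library to 14.1 and 14.4 at day 2 and 1.99 and 2.16 at day 5, while klu went from 0.939 and 0.796 to 19.1 and 19.7.

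The genes whose levels ran most alike were ranked over 57 points, 19 clusters in 3 conditions that share libraries, among 8776 genes. For Sodh-1 they were CG18003 (Pearson r = 0.83 on log2 levels), pug (0.81) and CG1979 (0.81). For CG16758 they were pug (0.87), CG1979 (0.84) and CG33307 (0.80), and for CG1979 they were CG30026 (0.88), P5cr-2 (0.86) and pug (0.85). The gene pug, a folate enzyme gene, had 1.15 UMIs per 10000 in fed fat body, 3.01 at day 2 and 6.85 at day 5. Without the fat body points r fell to 0.59 for Sodh-1 with pug and to 0.66 for CG16758 with pug. It fell further for CG16758 with CG33307 (0.29) and for CG1979 with CG30026 (0.47).

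For klu the most alike were sev (0.84), CG9220 (0.77) and fus (0.75), and without fat body sev had 0.85. In fat body itself sev stayed at 0.573, 0.727 and 0.811 UMIs per 10000, so this likeness is carried by the other clusters. For CG15096 they were CG6067, P5cr-2 and Ass, each with 0.86, for CG6910 CG34331 (0.82), lectin-28C (0.79) and Gel (0.79), and for CG8112 mino (0.75), CG7900 (0.71) and CG3376 (0.71). For Cyp4e3 they were CG11741 (0.72), CG4335 (0.69) and CG5966 (0.68). Without the fat body points these fell to 0.34, 0.32 and 0.46. CG5966 had the same course as Cyp4e3 in fat body, at 6.69 in fed, 24.0 at day 2 and 1.60 at day 5.

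Genes that overlap or lie close to members were read in fat body, since the use of strand in counting is not stated. Cks85A, on the other strand across CG8112, had 0.184 and 0.239 UMIs per 10000 in fed and 0.601 and 0.762 at day 5, far below the 14.8 and 13.8 of CG8112. The long non-coding RNA gene across CG15096 had at most 0.011. Est-6, 957 bases after CG6910, had 1.02 and 0.975 in fed, 3.25 and 3.46 at day 2 and 2.07 and 2.19 at day 5. It was thus also highest at day 2, at a much lower level than CG6910. Reads that run on from Sodh-1 into CG1979, 44 bases away, cannot be told apart from reads of CG1979 in these counts.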

How the data were processed

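The authors made droplet 3' libraries from sorted nuclei and counted UMIs with Cell Ranger 6.1.1 on BDGP6, with depths equalized between libraries. Seurat is also named in the submitters' processing notes; filters and parameters, doublet treatment and the use of strand are not given in the sources used here. The file holds fewer nuclei than the methods count, for a reason not stated. The authors deposited 1 value per gene and nucleus on a natural log scale, with the condition, cluster and cluster name of each nucleus. Tested on the file, a value is the natural log of 1 plus UMIs per 10000 of the nucleus divided by the gene's mean UMIs per nucleus. This gave back 99.98% of nonzero values within 0.001, and 99.99% of the recovered UMIs were whole within 0.05. Recovered UMIs ran from 499 to 24995 per nucleus, median 1231. Of 42848 barcode sequences, 179 occurred in more than 1 library.

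Clusters are those of the authors, and groups are those of the titles. UMIs were summed per library and cluster for levels, with 0.5 added to a count and 1 to a total for log2 changes. Since the values were logs, limma 3.58.1 in R 4.3.3 tested, for each library and cluster, the mean of the deposited values over the 3 conditions (lmFit, eBayes with trend), for genes nonzero in 10 nuclei of at least 2 libraries, with a Benjamini-Hochberg threshold of 0.05 within each of 19 clusters. SE and log2 changes come from the same fit on summed UMIs, adjusted p from mean values unless stated. Intervals are exact binomial at 95% and, like the floor of 3 counts, cover counting error only. Python 3.11.15 with numpy 2.4.6, scipy 1.17.1, pandas 2.3.3 and matplotlib 3.10.9 did the rest. Scripts were tested on simulated nuclei of clusters 12 and 15, drawn with an assumed spread. The fit called 9.68% and 19.6% of 2-fold changes there, and 81.3% and 81.5% of 4-fold changes. A missing call in a cluster therefore does not show that a 2-fold change is absent. The members and lists were chosen with earlier results of these data known.

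Named were the 8 members, their calls in other clusters, the 3 genes most alike in Pearson r of log2(UMIs per 10000 + 0.1) with at least 500 UMIs, and in each companion list up to 2 genes per direction with the smallest adjusted p; others are said to be chosen after seeing values. Alternatives were summed UMIs, median-ratio factors, log-normalized means, other filters, only the libraries compared, a replicate block, leaving out the deepest nuclei, 1 adjustment over all clusters, and each library left out. No sequences are shown, and promoters and proteins were not analysed here.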

Additional observations from a re-analysis of the deposited data

Results flagged for a closer look

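The change in klu is set side by side here for 5 pairs of clusters outside fat body, chosen because their calls pointed in opposite directions in these libraries. That choice fixes the direction of each value, so they are a description and no test of them is given. Each value is the change in mean deposited value in the first cluster minus that in the second. From fed to day 5 it was 0.80 for cluster 4 against cluster 5, both labelled follicle cell, and 0.85 for cluster 4 against glia. For oenocytes it was 0.84 against cluster 5 and 0.89 against glia. From day 2 to day 5 it was 0.68 for cluster 4 against cluster 5. Several of the calls behind the choice are lost without fed replicate 1 (limma, adjusted p = 0.092 in oenocytes, 0.057 in cluster 5 and 0.24 in glia, fed to day 5), and the day 2 to day 5 call in cluster 4 is lost without day 2 replicate 2 (adjusted p = 0.059). The same libraries enter all 5 values, so they are not independent of each other.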

How the results depend on the processing

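The counts of calls outside fat body moved with the filter, with the libraries compared and with single libraries. With no filter on low values 13 pairs were higher at day 2 than fed, 18 at day 5 than fed and 6 at day 5 than day 2, and 0 were lower at day 5 than fed. With only the 4 libraries compared, 32 were higher at day 2 and 4 lower at day 5. Summed UMIs, median-ratio factors and log-normalized means each gave 1 pair lower at day 2 (CG8112 in cluster 12), and summed UMIs and median-ratio factors each gave 5 lower at day 5. Without the tenth of nuclei with most UMIs 1 was lower at day 5. Leaving out 1 library at a time gave 11 to 31 higher and 0 to 0 lower at day 2, 13 to 33 higher and 0 to 3 lower at day 5, and 5 to 15 higher and 6 to 14 lower between day 2 and day 5. The day 2 count was lowest, at 11, without either fed library and without day 2 replicate 2, and between day 2 and day 5 the higher count was 6 and 5 without day 2 replicates 1 and 2. The cause was not tested.

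The correlation of deviations between same-numbered libraries was -0.15 to 0.25 over 19 clusters, median 0.01, and all 3 correlations of a cluster were over 0.1 in cluster 13 alone (0.23, 0.25 and 0.14), so the numbers were not taken to pair the libraries. With a replicate block 21 pairs were higher at day 2, 31 at day 5 (2 lower) and 12 between them (11 lower).

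Of the 76 calls, 31 held under every alternative tried and none changed sign. No fat body value of a member reversed under 8 alternatives each, while 24 of the 192 alternatives moved it by more than the spread between libraries. The members were chosen by their fat body values, so that a kept sign is a description and no test. Median-ratio factors moved the median change of all genes to between -0.04 and 0.05 over clusters and contrasts, from -0.41 to 0.13 with library totals. Depth limits the low levels: Cyp4e3 at day 5 rests on 3 and 6 UMIs in fat body.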
